A study of Mus musculus with 6 samples.

Results

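The 50 genes described here encode the machinery of mitosis: the mitotic cyclins and the enzymes that switch on CDK1, the mitotic kinases, the spindle checkpoint, the chromosomal passenger complex, the factors of anaphase, the mitotic kinesins, the kinetochore, proteins of the spindle and of cytokinesis, proteins of chromosome structure, and the transcription factors *Foxm1* and *Mybl2*. They were chosen by gene name, with earlier results of these data known, and all 50 were found among the 54532 genes of the table. RNA-seq was performed on ovarian granulosa cells (GCs), the somatic cells that surround the oocyte, from female ICR mice that were 3 weeks old. All mice had received 5 IU of PMSG, a gonadotropin that drives follicle growth, and 22 h later were injected i.p. with cyclophosphamide (CTX), an alkylating chemotherapeutic agent, at 120 mg/kg or with PBS. GCs were collected 6 h after CTX or PBS treatment, with 3 samples in each group and the GCs of 3 mice pooled in each sample. The comparison of the PBS and CTX groups asks which transcripts in GCs differ shortly after CTX treatment.

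The values are FPKM, sequenced fragments divided by gene length in kilobases and by depth, and the reads rebuilt from them came to between 16005869 and 18455011 per sample. Granulosa cell markers were abundant in all 6 samples, with a summed level of the 13 markers of 13930 to 15258 FPKM in the PBS group and of 11981 to 12869 FPKM in the CTX group. Most of this sum is *Inha*. Of the 13 markers, 8 (61.5%) were lower in every CTX sample than in any PBS sample, against 14.1% of all genes tested. This was about the share found for mitosis genes. Leaving out CTX replicate 2, which cannot lower such a count, left it at 8 (background 19.4%). On average 10 of the 13 were lower and 3 were higher. *Cyp19a1* (aromatase), *Inhbb*, *Inhba* and *Foxl2* had log2 fold changes of -1.47, -1.03, -1.01 and -0.82. The 3 higher ones were *Amh*, *Esr2* and *Amhr2*, at 0.93, 0.57 and 0.37, each with its highest value in CTX replicate 2. With all samples 0 of the 13 passed the test, while without CTX replicate 2 *Inhbb* passed (adjusted p = 0.0331, limma). CTX replicate 2 stood apart. Over the 14463 genes tested, its median absolute difference from the PBS samples was 0.300 to 0.302 on the log2 scale, while CTX replicates 1 and 3 differed from each other by 0.16. CTX replicate 2 also differed from the other CTX samples in the summed levels of leukocyte, of theca and stroma and of endothelial markers. The summed level of 12 leukocyte markers was 23.7 to 26.7 FPKM in the PBS group and 41.0, 75.3 and 28.7 FPKM in CTX replicates 1, 2 and 3. All 7 leukocyte markers tested were higher on average, with a median log2 fold change of 0.77 (0.43 without CTX replicate 2). In every CTX sample 4 of the 7 (57.1%) were higher than in any PBS sample, as were 2175 of the 14463 genes tested. These were *C1qc*, *Cd68*, *Lyz2* and *Tyrobp*. The 12 theca and stroma markers summed to 68.5 to 71.1 FPKM in the PBS group and to 96.1, 38.8 and 69.6 FPKM in the CTX samples. The 10 endothelial markers summed to 8.72 to 9.00 FPKM and to 7.72, 3.80 and 7.96 FPKM. For oocyte markers the sums were 57.7, 119 and 113 FPKM in PBS replicates 1, 2 and 3 and 75.3, 131 and 133 FPKM in the CTX samples. In these, CTX replicate 2 did not stand apart. In each of these lists, no marker was at 0 in all samples, and *Acta2*, a smooth muscle actin of the theca and stroma list, was the only marker that passed the test with all samples (log2 fold change 1.08, adjusted p = 0.0166, limma). The sum hides that 9 of the 10 theca and stroma markers tested were above their PBS mean in CTX replicates 1 and 3, at median deviations of 0.86 and 0.66 on the log2 scale, against -0.34 in CTX replicate 2. Without CTX replicate 2, 6 of these 10 were higher in every CTX sample, against 19.2% of all genes tested. The list's median log2 fold change was then 0.74. *Acta2* and *Col1a2* passed an adjusted p-value below 0.05, as did 3.65% of all genes tested. The 6 higher genes were *Acta2*, *Col1a1*, *Col1a2*, *Col3a1*, *Dcn* and *Pdgfra*. *Cyp17a1* of the same list went the other way. It was lower in every CTX sample with all samples (background 14.1%) and without CTX replicate 2 (background 19.4%). The part of other cell types in the results below was not tested, and each main result is given with and without CTX replicate 2.

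Mitosis genes are transcribed late in the cell cycle, so that their mRNAs are abundant in cells in G2 and M phase and scarce in resting cells. Their promoters commonly carry CCAAT boxes, which bind NF-Y, and a cell cycle genes homology region (CHR). At the CHR, the MuvB complex acts as part of the repressive DREAM complex in resting cells and together with B-MYB (encoded by *Mybl2*) and FOXM1 as an activator in dividing cells. GCs of growing follicles are among the most actively dividing cells of the ovary, and gonadotropins promote their proliferation. In bulk RNA, fewer cells in mitosis and less mitotic mRNA in each cell cannot be told apart.

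Mitosis genes were well expressed in GCs. Their mean level in the PBS group ran from 1.47 FPKM for *Kif18a* to 71.7 FPKM for *Cdc20*, with a median of 16.7 FPKM, which was above the PBS mean of 76.0% of the genes tested. A total of 47 of the 50 genes had a PBS mean over 5 FPKM, and each value rested on 189 to 7826 reads, with a median of 1189 reads. All 50 passed the filter on low values and were tested.

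After CTX treatment, 47 of the 50 genes were lower on average, but 0 of the 50 passed the threshold of an adjusted p-value below 0.05 and more than a 2-fold difference, which 0.961% of all genes tested passed. At an adjusted p-value below 0.05 with any fold, 0 of the 50 passed, against 1.76% of all genes tested. The adjusted p-values of the 50 genes ran from 0.0623 for *Plk1* to 0.957 for *Spc25* (limma). Their median log2 fold change was -0.32, beside -0.01 for all genes tested. At an unadjusted p-value below 0.05, 21 of the 50 were lower, where 9.10% of all genes tested were, and 1, *Mybl2*, was higher, where 10.5% of all genes tested were. In 30 of the 50 genes (60%) the 3 CTX samples lay below the 3 PBS samples, against 14.1% of all genes tested. In *Mybl2* they lay above, as in 2175 of the 14463 genes tested, and in the other 19 the groups overlapped. An exact permutation test of 3 against 3 samples cannot give a two-sided p below 0.1. The 95% confidence interval of the log2 fold change excluded 0 in 22 of the 50 genes and reached a 2-fold decrease (-1) in 6.

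**Figure D1:**
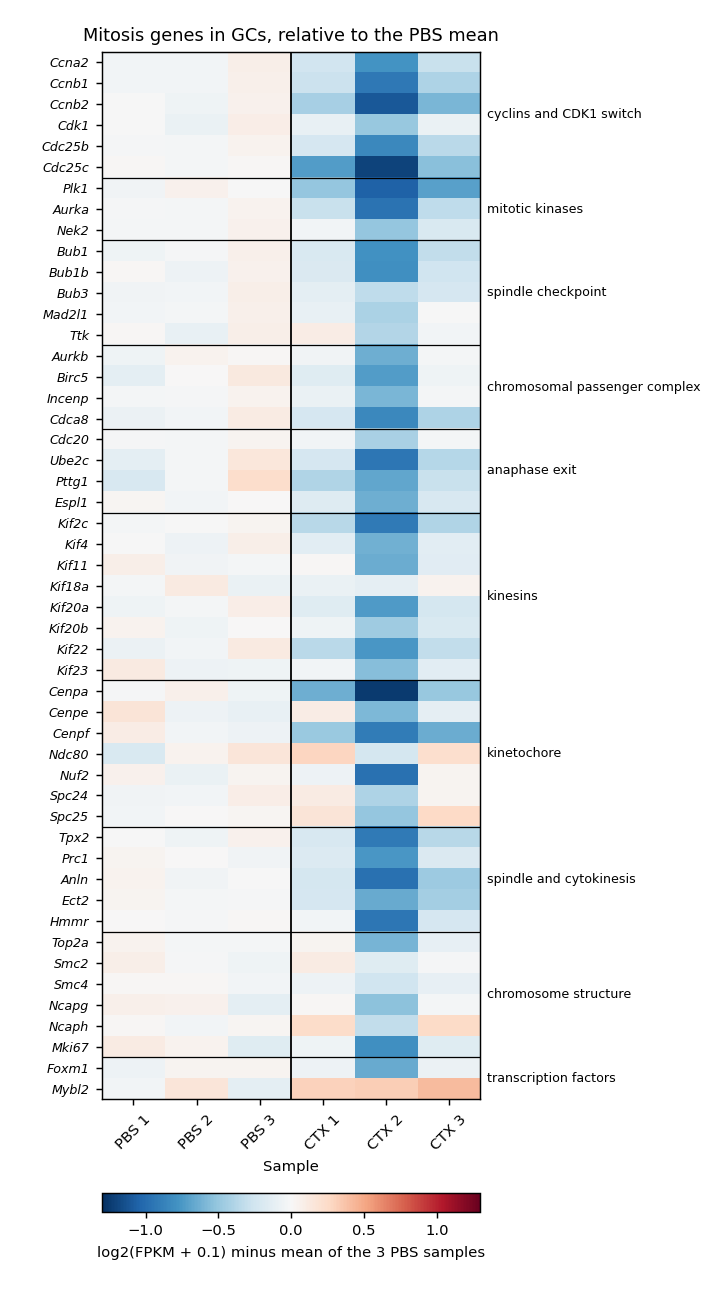
Level of the 50 mitosis genes in each sample as log2(FPKM + 0.1) minus the mean of the 3 PBS samples, with genes in rows by role and samples in columns. Blue is lower and red is higher than the PBS mean; CTX replicate 2 is the lowest sample in 49 of the 50 genes, and *Mybl2* is above the PBS mean in all CTX samples.

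The difference was largest in CTX replicate 2, which was the lowest of the 6 samples in 49 of the 50 genes, all but *Mybl2*. The median deviation of the 50 genes from the PBS mean, on the log2 scale, was -0.01, -0.03 and 0.04 in PBS replicates 1, 2 and 3, and -0.11, -0.65 and -0.19 in CTX replicates 1, 2 and 3. The summed level of the 50 genes was 972, 970 and 1010 FPKM in the PBS samples, 885 and 850 FPKM in CTX replicates 1 and 3, and 614 FPKM in CTX replicate 2. The median coefficient of variation over the 50 genes was 4.24% in the PBS group, 20.4% in the CTX group and 5.03% between CTX replicates 1 and 3. CTX replicates 1 and 3 were below all PBS samples in 34 and 36 of the 50 genes. Without CTX replicate 2, the median log2 fold change was -0.13, and 43 of the 50 genes were lower on average. The genes lower in all remaining CTX samples were the same 30 (background 19.4%). This was fixed beforehand, since CTX replicate 2 was the lowest sample in 49 of the 50 genes. Higher in all remaining CTX samples were *Mybl2*, *Ndc80*, *Ncaph* and *Spc25*, 4 of 50 (background 19.2%). In that fit the spread was smaller, and 5 genes passed an adjusted p-value below 0.05 at less than 2-fold, where 3.65% of all genes tested did (limma). These were *Cdc25c* (adjusted p = 0.014), *Plk1* (0.019), *Cenpa* (0.019), *Ccnb2* (0.025) and *Kif2c* (0.034), all of them lower.

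**Figure D2:**
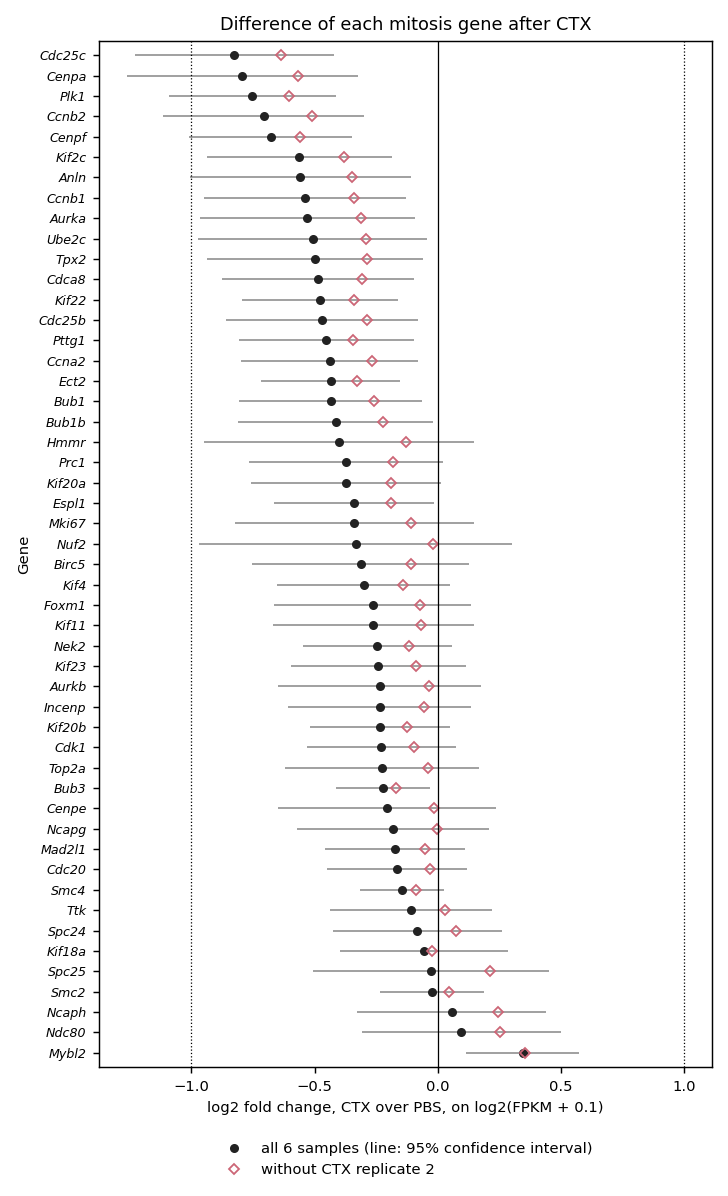
Log2 fold change of CTX over PBS for each of the 50 genes on the log2(FPKM + 0.1) scale, with the 95% confidence interval over all 6 samples (black) and the value without CTX replicate 2 (red diamonds). Dotted lines mark 2-fold; with all samples 47 of the 50 genes lie below 0, and without CTX replicate 2 the values shift towards 0 and 43 lie below it.

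The cyclins and the CDK1 switch, which start mitosis, were among the groups with the largest difference. All 6 of these genes were lower in every CTX sample than in any PBS sample, against 14.1% of all genes tested. The median log2 fold change of the 6 was -0.50 (-0.31 without CTX replicate 2). *Ccnb2*, which encodes cyclin B2, was the most abundant of them, at 67.8, 65.3 and 70.7 FPKM in PBS replicates 1, 2 and 3 and 50.2, 31.7 and 45.1 FPKM in CTX replicates 1, 2 and 3. The groups did not overlap, and the lowest PBS sample was above the highest CTX sample by more than the range of the PBS group. Its log2 fold change was -0.71 (SE 0.17, adjusted p = 0.114, limma). *Cdc25c*, a phosphatase that removes the inhibitory phosphates of CDK1, had the most negative log2 fold change of the 50, at -0.82 (SE 0.17, adjusted p = 0.0778). It was at 12.9, 12.5 and 12.9 FPKM in the PBS samples and at 7.70, 5.49 and 8.71 FPKM in the CTX samples. The CTX mean was thus 0.571 times the PBS mean. *Ccnb1* (cyclin B1) had a log2 fold change of -0.54, *Cdc25b* of -0.47 and *Ccna2* (cyclin A2) of -0.44. *Cdk1* itself, the kinase that these proteins activate, was at -0.23 (95% confidence interval -0.53 to 0.07).

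The group of mitotic kinases held *Plk1*, *Aurka* and *Nek2*. All 3 were lower in every CTX sample than in any PBS sample, against 14.1% of all genes tested. The median log2 fold change of the 3 was -0.53 (-0.31 without CTX replicate 2). Among kinases placed under other roles, *Cdk1* and *Bub1* were also lower in every CTX sample, while *Aurkb* and *Ttk* overlapped between groups. *Plk1*, a kinase that promotes mitotic entry, centrosome maturation and cytokinesis, was at 38.3, 41.0 and 39.4 FPKM in the PBS samples and at 28.0, 19.0 and 24.2 FPKM in the CTX samples. It did not pass the test with all samples, at a log2 fold change of -0.75 (SE 0.14, adjusted p = 0.0623). *Plk1* passed an adjusted p-value below 0.05 in the fit without CTX replicate 2, in the fit of protein-coding genes only (adjusted p = 0.048; 1 of 50, where 2.52% of all genes tested passed) and with limma's voom on the rebuilt reads (adjusted p = 0.046). With voom 2 of the 50 genes passed, *Plk1* and *Cenpf*, against 1.91% of all genes tested. *Aurka*, the kinase of centrosomes and spindle poles, had a log2 fold change of -0.53 and *Nek2*, which separates centrosomes, of -0.25.

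**Figure D3:**
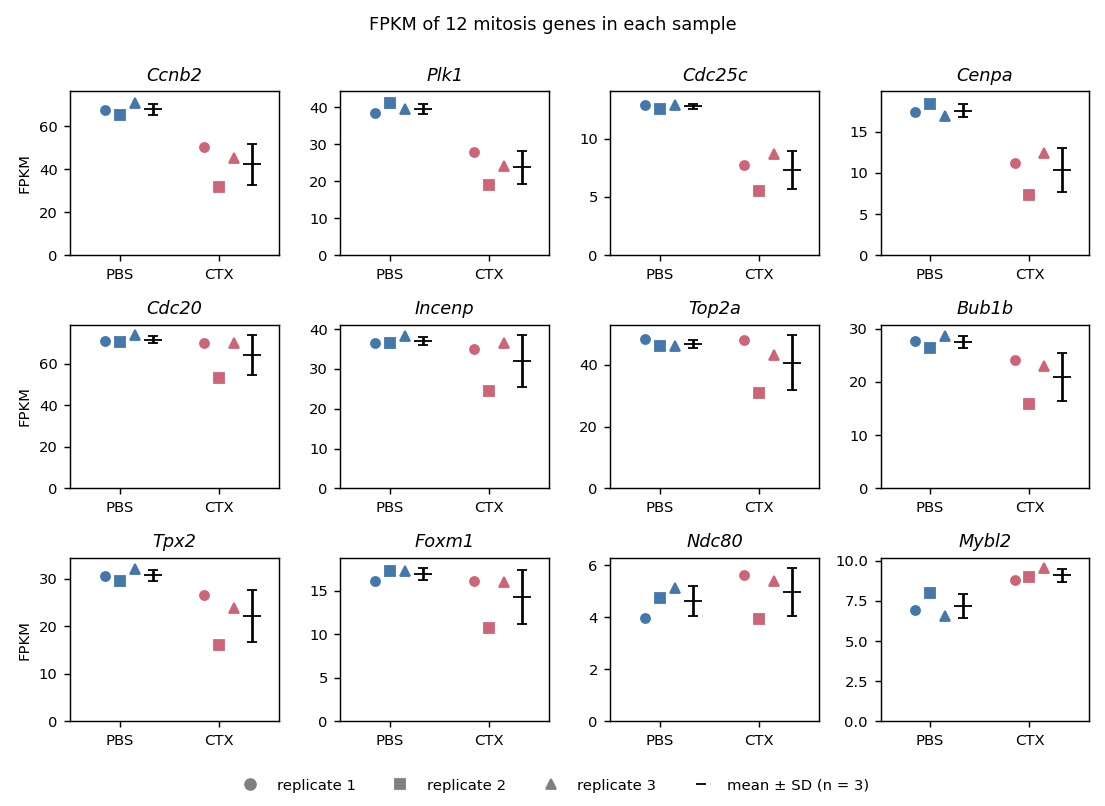
FPKM of 12 mitosis genes in each sample, with PBS in blue and CTX in red, symbols for replicates 1, 2 and 3, and the mean ± SD (n = 3) in black; each axis starts at 0. *Ccnb2*, *Plk1*, *Cdc25c* and *Cenpa* are lower in all CTX samples, *Cdc20*, *Incenp*, *Top2a* and *Foxm1* differ from PBS mainly in CTX replicate 2, and *Mybl2* is higher in all CTX samples.

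The spindle checkpoint, which delays anaphase until chromosomes are attached, had a median log2 fold change of -0.22 (-0.17 without CTX replicate 2). Where 14.1% of all genes tested were lower in every CTX sample than in any PBS sample, 3 of its 5 genes were. *Bub1b*, the most abundant of them in the PBS group, was at 27.7, 26.3 and 28.5 FPKM in the PBS samples and at 24.2, 15.8 and 22.9 FPKM in the CTX samples, which gave a log2 fold change of -0.41 (SE 0.16, adjusted p = 0.241). *Bub1* was at -0.43 and *Bub3* at -0.22. *Mad2l1* and *Ttk*, at -0.17 and -0.11, overlapped between groups.

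The chromosomal passenger complex, which corrects faulty attachments of chromosomes and later acts in cytokinesis, had a median log2 fold change of -0.27 over its 4 genes, and of -0.08 without CTX replicate 2. *Incenp*, its scaffold, was at 36.4, 36.6 and 38.3 FPKM in the PBS samples and at 34.9, 24.5 and 36.5 FPKM in the CTX samples. CTX replicate 3 lay within the PBS range, and the log2 fold change was -0.24 (SE 0.15, adjusted p = 0.42). *Aurkb*, the kinase of the complex, was also at -0.24. *Cdca8* (borealin), at -0.49, was the only 1 of the 4 that was lower in every CTX sample than in any PBS sample. This held for 14.1% of all genes tested.

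The factors of anaphase and mitotic exit were lower in every CTX sample than in any PBS sample in 4 of 4 genes. This held for 14.1% of all genes tested. The median log2 fold change of the 4 was -0.40 (-0.24 without CTX replicate 2). *Cdc20*, which directs the anaphase-promoting complex to its substrates, had the highest PBS level of the 50 genes, at 70.9, 70.4 and 73.7 FPKM, and was at 69.9, 53.3 and 70.2 FPKM in the CTX samples. CTX replicates 1 and 3 were below the lowest PBS sample by less than the range of the PBS group, so that the groups separated narrowly. The log2 fold change was -0.16 (SE 0.12, adjusted p = 0.458). *Ube2c*, the ubiquitin-conjugating enzyme of the same complex, was at -0.51, *Pttg1* (securin) at -0.45 and *Espl1* (separase) at -0.34.

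Among the 8 kinesins, motor proteins that move along or take apart microtubules, 5 were lower in every CTX sample than in any PBS sample. This held for 14.1% of all genes tested. The median log2 fold change of the kinesins was -0.28 (-0.13 without CTX replicate 2). *Kif22*, which pushes chromosome arms away from the poles, was at 17.5, 17.9 and 19.9 FPKM in the PBS samples and at 14.3, 10.8 and 14.7 FPKM in the CTX samples, which gave a log2 fold change of -0.48 (SE 0.13, adjusted p = 0.145). *Kif2c*, a microtubule depolymerase of the centromere, had the most negative value of the kinesins, at -0.56. *Kif11*, which drives apart the spindle poles, was at -0.26, and *Kif18a* was at -0.06, the smallest difference of the kinesins.

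The 7 kinetochore genes had log2 fold changes from -0.79 to 0.09, with a median of -0.21 (-0.01 without CTX replicate 2). *Cenpa*, the histone H3 variant of centromeres, was at 17.4, 18.4 and 16.9 FPKM in the PBS samples and at 11.2, 7.33 and 12.4 FPKM in the CTX samples, which gave a log2 fold change of -0.79 (SE 0.19, adjusted p = 0.118), the second most negative of the 50. *Cenpf*, a large protein of the outer kinetochore, was at 4.22, 3.82 and 3.76 FPKM and at 2.79, 2.04 and 2.48 FPKM, with a log2 fold change of -0.68 (adjusted p = 0.0773). In these 2 of the 7 genes every CTX sample was below every PBS sample, against 14.1% of all genes tested. The genes of the NDC80 complex, which binds microtubules, overlapped between groups. *Ndc80* was at 3.98, 4.74 and 5.12 FPKM in the PBS samples and at 5.61, 3.91 and 5.37 FPKM in the CTX samples, with a log2 fold change of 0.09 (SE 0.17, adjusted p = 0.768). *Spc25* and *Spc24*, of the same complex, were at -0.03 (95% confidence interval -0.50 to 0.45) and -0.08 (-0.43 to 0.26), and *Nuf2* was at -0.33 with an interval of -0.97 to 0.30. Without CTX replicate 2, the log2 fold changes of *Ndc80*, *Spc25* and *Spc24* were 0.25, 0.21 and 0.07, and that of *Nuf2* was -0.02.

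The 5 genes of the spindle and of cytokinesis were lower in every CTX sample than in any PBS sample. This held for 14.1% of all genes tested. The median log2 fold change of the 5 was -0.43 (-0.29 without CTX replicate 2). *Tpx2*, which activates Aurora A on spindle microtubules, was at 30.5, 29.5 and 32.0 FPKM in the PBS samples and at 26.5, 16.1 and 23.8 FPKM in the CTX samples, which gave a log2 fold change of -0.50 (SE 0.18, adjusted p = 0.217). *Anln* (anillin), which organises the contractile ring, was at -0.56, *Ect2*, which activates RhoA there, at -0.44, *Hmmr* at -0.40 and *Prc1*, which bundles microtubules of the central spindle, at -0.37.

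The genes of chromosome structure had a median log2 fold change of -0.16 over 6 genes and of -0.02 without CTX replicate 2. *Top2a*, the topoisomerase that untangles sister chromatids, was at 48.3, 45.9 and 45.9 FPKM in the PBS samples and at 47.9, 30.7 and 43.2 FPKM in the CTX samples. The groups overlapped, and the log2 fold change was -0.23 (SE 0.16, adjusted p = 0.46). Among the condensin genes, *Smc4* was at -0.14, *Ncapg* at -0.18 and *Smc2* at -0.02, with a 95% confidence interval for *Smc2* of -0.23 to 0.19. *Ncaph*, also of condensin, was at 17.2, 16.6 and 17.3 FPKM in the PBS samples and at 20.2, 13.7 and 20.3 FPKM in the CTX samples, so that CTX replicate 2 lay below and the other CTX samples above the PBS group. Its log2 fold change was 0.06 (SE 0.16, adjusted p = 0.857). *Mki67*, the marker of dividing cells, was at 21.2, 20.3 and 17.6 FPKM in the PBS samples and at 18.8, 11.3 and 17.5 FPKM in the CTX samples, with a log2 fold change of -0.34 (SE 0.20, adjusted p = 0.383).

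The 2 transcription factors differed in direction. *Foxm1*, an activator of mitosis genes, was at 16.1, 17.3 and 17.3 FPKM in the PBS samples and at 16.2, 10.7 and 16.0 FPKM in the CTX samples. CTX replicate 1 lay within the PBS range and CTX replicate 2 far below it, and the log2 fold change was -0.26 (SE 0.17, adjusted p = 0.404). *Mybl2* was at 6.95, 8.0 and 6.54 FPKM in the PBS samples and at 8.79, 8.96 and 9.54 FPKM in the CTX samples. All CTX samples, CTX replicate 2 included, were above all PBS samples. The log2 fold change was 0.34 (SE 0.09, unadjusted p = 0.00994, adjusted p = 0.145, limma), and 0.36 without CTX replicate 2.

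The place of each gene among the 50 was also compared within each sample, as a description chosen after the values were seen. For this, the median deviation of the 50 genes in a sample was subtracted from each gene's deviation from the PBS mean, on the log2 scale. *Cdc25c* then lay at -0.61, -0.55 and -0.36 in CTX replicates 1, 2 and 3, *Cenpa* at -0.53, -0.60 and -0.30, *Plk1* at -0.39, -0.40 and -0.52, and *Ccnb2* at -0.32, -0.45 and -0.40. At the other end, *Mybl2* lay at 0.41, 0.97 and 0.60, *Ndc80* at 0.39, 0.43 and 0.41, and *Ncaph* at 0.35, 0.33 and 0.44. These genes were picked from both ends of the order of the CTX minus PBS difference, which largely fixes their side. Over the whole list, 16 of the 50 genes were lower and 11 higher in every CTX sample than in any PBS sample on this scale. Subtracting the median places about as many of the 50 above as below it, which in part makes these counts. No share over all genes was computed on this scale. In FPKM, 30 of the 50 were lower and 1 was higher in every CTX sample. Other genes changed sides: *Nuf2* was at 0.04, -0.32 and 0.22, and *Hmmr* at 0.07, -0.29 and -0.03.

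**Figure D4:**
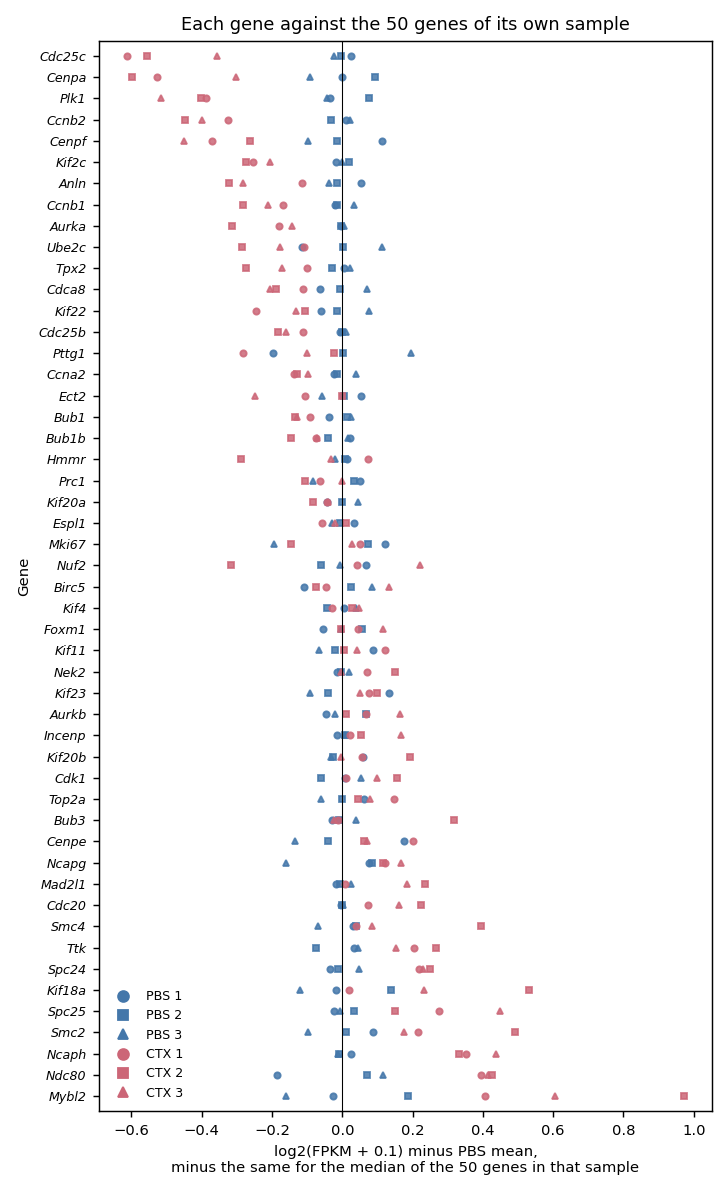
Deviation of each gene from its PBS mean on the log2(FPKM + 0.1) scale, after subtracting the median deviation of the 50 genes in the same sample, with PBS in blue, CTX in red and symbols for replicates 1, 2 and 3. Genes are ordered by the difference of the group means; *Cdc25c*, *Cenpa*, *Plk1* and *Ccnb2* have the lowest differences and *Mybl2*, *Ndc80* and *Ncaph* the highest, although single samples of other genes lie further out.

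Promoters of mitosis genes shared sequence features that the choice of the genes did not use. Windows of 300 bases, from 250 bases before to 50 bases after the start of the gene, were taken from RefSeq on GRCm38.p6, where 41 of the 50 genes had an entry. They were searched on both strands for the letters of the CHR (TTTGAA or TTCGAA), for CCAAT and, as a choice made after the sequences were seen, for GGCGGGA, a core of E2F sites. The windows of *Ccnb2*, *Plk1* and *Cenpa* are printed because these genes were among the lowest after CTX treatment, that of *Spc25* because it holds the same letters at a log2 fold change near 0, and that of *Mybl2* because it was the gene with all CTX samples above PBS. Capitals mark the motif letters, and a motif on the opposite strand appears as its reverse complement (ATTGG for CCAAT). The window of *Ccnb2* was at chr9:70421505-70421804 on the minus strand, that of *Plk1* at chr7:122159185-122159484 on the plus strand, that of *Cenpa* at chr5:30666636-30666935 on the plus strand, that of *Spc25* at chr2:69206164-69206463 on the minus strand and that of *Mybl2* at chr2:163054385-163054684 on the plus strand.
Ccnb2: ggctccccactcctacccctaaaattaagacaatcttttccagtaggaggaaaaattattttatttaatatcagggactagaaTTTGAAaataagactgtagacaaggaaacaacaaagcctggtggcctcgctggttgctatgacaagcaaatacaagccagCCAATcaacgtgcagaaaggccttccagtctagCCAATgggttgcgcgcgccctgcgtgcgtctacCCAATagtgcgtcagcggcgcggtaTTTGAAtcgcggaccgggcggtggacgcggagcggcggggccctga
Plk1: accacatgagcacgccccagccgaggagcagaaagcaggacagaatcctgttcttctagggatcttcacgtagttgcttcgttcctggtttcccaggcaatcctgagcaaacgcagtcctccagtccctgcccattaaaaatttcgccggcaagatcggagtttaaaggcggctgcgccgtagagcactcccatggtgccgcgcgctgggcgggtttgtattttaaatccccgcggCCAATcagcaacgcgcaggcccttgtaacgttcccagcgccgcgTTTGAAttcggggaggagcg
Cenpa: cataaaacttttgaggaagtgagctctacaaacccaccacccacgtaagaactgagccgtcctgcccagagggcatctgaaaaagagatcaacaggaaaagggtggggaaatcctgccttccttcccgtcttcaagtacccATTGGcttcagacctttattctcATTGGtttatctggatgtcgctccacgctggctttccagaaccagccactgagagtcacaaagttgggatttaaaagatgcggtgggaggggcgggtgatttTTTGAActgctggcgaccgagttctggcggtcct
Spc25: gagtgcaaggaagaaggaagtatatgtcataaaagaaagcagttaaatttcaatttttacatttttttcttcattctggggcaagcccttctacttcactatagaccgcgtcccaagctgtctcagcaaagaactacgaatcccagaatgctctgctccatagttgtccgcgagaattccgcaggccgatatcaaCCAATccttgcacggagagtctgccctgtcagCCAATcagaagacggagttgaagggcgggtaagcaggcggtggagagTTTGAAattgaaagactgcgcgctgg
Mybl2: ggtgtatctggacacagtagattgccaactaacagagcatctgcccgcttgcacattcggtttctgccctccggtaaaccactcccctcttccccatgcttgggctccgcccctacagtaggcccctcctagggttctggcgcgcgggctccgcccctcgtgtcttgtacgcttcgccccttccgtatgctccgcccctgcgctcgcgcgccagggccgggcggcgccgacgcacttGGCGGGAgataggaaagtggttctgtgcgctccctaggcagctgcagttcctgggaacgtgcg

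In *Ccnb2*, the 3 CCAAT boxes start 33 bases apart, at -87, -54 and -21 from the RefSeq start, and a TTTGAA follows at 5. In *Plk1* a CCAAT starts at -14 and a TTTGAA at 31, and in *Spc25* the CCAAT boxes start at -55 and -23, 32 bases apart, with a TTTGAA at 25. In *Mybl2* neither CHR letters nor CCAAT were in the window, and GGCGGGA started at -13. Over the genes with a window, CHR letters were present in 31 of 41 mitosis genes (75.6%), against 21.7% of all 27025 genes of the promoter table and 16.1% of the 9872 tested genes found in it. CCAAT was present in 30 of 41 (73.2%), against 41.1% and 42.9%, and both in 1 window in 27 of 41 (65.9%), against 8.61% and 6.80%. A pair of CCAAT boxes with starts 30 to 36 bases apart, a spacing chosen after the sequences were seen, was present in 9 of 41 mitosis genes, in 571 of the 27025 genes of the table and in 352 of the 9872 tested genes. GGCGGGA was present in 11 of 41 (26.8%), against 12.7% and 24.3%. Mitosis genes with CHR letters had a median log2 fold change of -0.37 (31 genes) and those without them of -0.23 (10 genes). Among other tested genes, the median was -0.01 with CHR letters (1559 genes) and -0.01 without them (8274 genes). A match of letters is a description and does not show that a factor was bound.

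A list of 95 other genes of mitosis showed a smaller difference, with a median log2 fold change of -0.15 (-0.04 without CTX replicate 2). Of these, 27 (28.4%) were lower in every CTX sample than in any PBS sample and 6 (6.32%) were higher. Among all 14463 genes tested, 14.1% were lower and 2175 were higher in this way. At an adjusted p-value below 0.05, 4 of the 95 (4.21%) passed the test, against 1.76% of all genes tested. Without CTX replicate 2, 13 of the 95 (13.7%) were higher in every CTX sample, a smaller share than the 19.2% of all genes tested. In that fit 9 (9.47%) passed, against 3.65% of all genes tested. These were the same 4 with *Gtse1*, *Ccnf*, *Cdca5*, *Kifc1* and *Pimreg*, and *Gtse1* was then past 2-fold as well. *Psrc1*, a microtubule-binding protein known as a p53 target, rose 2.58-fold, from 6.59, 7.18 and 7.19 FPKM in the PBS samples to 18.0, 15.1 and 20.9 FPKM in the CTX samples (log2 fold change 1.34, SE 0.13, adjusted p = 0.00566, limma), and was the only one past 2-fold with all samples. *Ckap2*, a spindle protein, was the other that rose, at a log2 fold change of 0.74 (adjusted p = 0.0327). *Kpna2*, an importin that carries cargo into the nucleus, fell at a log2 fold change of -0.85 (adjusted p = 0.029), and *Arhgef39* at -0.95 (adjusted p = 0.0309). The 11 genes of the DREAM and MuvB complexes had a median log2 fold change of 0.04, and 0 of the 11 passed the test. The members with the smallest p-values were *Tfdp1*, *Lin37* and *Tfdp2*, at log2 fold changes of 0.24, -0.30 and 0.28.

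DNA replication genes, which act in S phase before mitosis, lay on the other side of the PBS group. The median log2 fold change of 51 of them was 0.22 (0.20 without CTX replicate 2), and 46 of the 51 were higher on average. In every CTX sample 27 (52.9%) were higher than in any PBS sample, while 0 were lower in every one. Of all 14463 genes tested, 2175 were higher and 14.1% were lower in this way. Their median deviation from the PBS mean was 0.18, 0.25 and 0.23 in CTX replicates 1, 2 and 3, so that CTX replicate 2, the lowest sample for mitosis genes, was not low for these. *Cdt1*, which licenses replication origins, was the only one of the 51 (1.96%) to pass an adjusted p-value below 0.05 with all samples. Of all genes tested, 1.76% passed. Without CTX replicate 2, 4 of the 51 passed (7.84%, against 3.65% of all genes tested), *Cdt1*, *E2f1*, *Pola1* and *Rrm2*. With voom 2 passed (3.92%, against 1.91%), *Cdt1* and *Pola1*. *Cdt1* rose from 12.8, 13.8 and 14.3 FPKM in the PBS samples to 18.8, 21.1 and 19.6 FPKM in the CTX samples (log2 fold change 0.54, SE 0.08, adjusted p = 0.0263, limma). *E2f1* and *Pola1* had the next smallest p-values, at log2 fold changes of 0.41 and 0.41 (adjusted p = 0.0509 and 0.0644). The difference between the lists of mitosis and DNA replication genes was not tested.

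**Figure D5:**
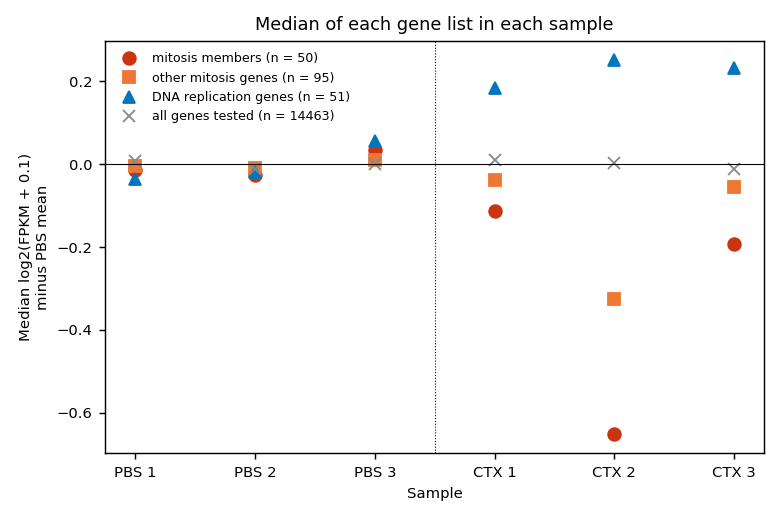
Median deviation from the PBS mean, on the log2(FPKM + 0.1) scale, of the 50 mitosis genes (red circles), 95 other mitosis genes (orange squares), 51 DNA replication genes (blue triangles) and all 14463 genes tested (grey crosses) in each sample. In CTX replicates 1, 2 and 3 the 50 mitosis genes lie at -0.11, -0.65 and -0.19 and the DNA replication genes at 0.18, 0.25 and 0.23.

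Overlapping genes bear on some of these values. In GENCODE M21, 16 of the 50 genes share exon bases with another gene, and the library kit named in the labels does not mark strand, so that reads from overlapping genes on opposite strands could not be told apart. The shared part of the exon bases was 29.3% in *Kif20a* (with *Cdc23*), 22.8% in *Ube2c* (with *Tnnc2*), 12.7% in *Cdc25c* (with *Gm3550*), 7.09% in *Plk1* (with *Gm44985*) and 2.84% in *Cdc20* (with *Elovl1*). For *Kif20a* and *Cdc25c* these shares need not hold for the exons that were counted, since the GENCODE model differs in its ends and holds 4338 and 4919 exon bases, against gene lengths of 3796 and 1941 bases in the table. *Ccnb2*, *Cenpa*, *Cenpf* and *Mybl2* share none. Processed pseudogenes carry the names of *Ccnb1*, *Ccnb2*, *Kif4* and *Kif22* in the table. Those of *Ccnb1* and *Ccnb2* reached at most 1.33 and 1.00 FPKM in any sample. That of *Kif4* reached at most 0.0135 FPKM, and that of *Kif22* was at 0 in every sample. Whether reads were assigned to a pseudogene in place of its gene, or the reverse, was not tested.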

How the data were processed

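RNA-seq libraries of 6 GC samples were analysed, 3 per group as the labels assign them. Per the labels, the submitters' processing notes name CASAVA 1.8, fastp, HISAT2 2.0.5, featureCounts 1.5.0-p3 and DESeq2 1.20.0, with the build mm10; strandedness of the counting is not given in the sources used here. The authors deposited FPKM values for 54532 genes. Multiplied by gene length, 100% of these were whole multiples of 1 read within 0.05, so that reads could be rebuilt. The FPKM values already carried median-of-ratios scaling, and that alternative therefore changed nothing. Columns with the authors' own fold changes and p-values were not used. Depth per sample was 16005869 to 18455011 reads, and 3 reads on a gene of 1 kb are worth 0.164 to 0.185 FPKM.

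Genes with a mean of at least 0.5 FPKM over the 6 samples (14463) were compared as log2(FPKM + 0.1) with limma 3.58.1 (lmFit, eBayes with trend, R 4.3.3), which understates the fold of low genes. P-values were two-sided and adjusted by the Benjamini-Hochberg method over all genes tested. They measure the spread between pooled samples. The threshold of the study is an adjusted p-value below 0.05 and more than 2-fold. The fit was tested on simulated data. Alternatives were other pseudocounts, filters and scalings, arrayWeights, eBayes without trend, a replicate block, voom on the rebuilt reads, protein-coding genes only and each sample left out in turn. Members of the list, the other gene lists and the tests were chosen with earlier results of these data known. Values in every sample are given for the 3 most positive and 3 most negative log2 fold changes and for the gene of highest PBS level in each of 10 roles; *Cenpf* and *Mki67* were added after their values were seen. Of other lists, the genes of smallest p are named. Tables and figures were made in Python 3.11.15 (pandas 2.3.3; NumPy 2.4.6; SciPy 1.17.1; matplotlib 3.10.9). Same-numbered PBS and CTX samples did not deviate together, and the fit carried no block.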

Additional observations from a re-analysis of the deposited data

How the results depend on the processing

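The count of mitosis genes past 2-fold at an adjusted p-value below 0.05 was 0 under each alternative fit run here, and the median log2 fold change stayed below 0 in all 19 of them. The count at an adjusted p-value below 0.05 with any fold was 2 with voom on the rebuilt reads, 1 with protein-coding genes only (2.52% of all genes tested), 3 without CTX replicate 1 (*Cenpf*, *Ect2* and *Plk1*; 3.05% of all genes tested) and 5 without CTX replicate 2, a range of 0 to 5 over the samples left out. With unadjusted p-values it was 21 lower and 1 higher, and over the samples left out 8 (without PBS replicate 3) to 27 lower and 1 to 3 (without CTX replicate 2) higher. It was 11 lower without PBS replicate 1 and likewise without PBS replicate 2. With all samples, 9.10% of all genes tested were lower and 10.5% higher at an unadjusted p-value below 0.05. These shares are not given here for the fits with a sample left out, so their unadjusted counts stand without a background. With arrayWeights the count at an adjusted p-value below 0.05 with any fold was 26 lower and 3 higher, but this fit did not converge. It gave CTX replicate 3 a weight of 16.6 against 0.163 for CTX replicate 2, and called 39.8% of all genes tested. The median ran from -0.42 (without CTX replicate 3) to -0.13 (without CTX replicate 2). The count of genes lower in all CTX samples ran from 30 to 36 over the samples left out, and the count of those higher from 1 to 4. Leaving out a sample cannot lower either count. The share over all genes tested moves as well. Lower in all CTX samples were 14.1% with all samples and 19.4% without CTX replicate 2. A replicate block left the count at 0, both with and without the fold threshold, and called 0.366% of all genes tested. Same-numbered samples correlated at 0.06, 0.02 and 0.01 in their deviations from the group means, so the numbers were not taken to pair them.

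The sign of the log2 fold change reversed in 9 genes, and the cause was not tested. With each sample left out in turn, it ran from -0.21 to 0.028 in *Ttk*, from -0.10 to 0.0016 in *Kif18a*, from -0.0049 to 0.25 in *Ndc80*, from -0.18 to 0.075 in *Spc24*, from -0.17 to 0.21 in *Spc25*, from -0.087 to 0.045 in *Smc2* and from -0.038 to 0.24 in *Ncaph*. It was 0.0025 in *Kif18a* with quantile normalization and, with arrayWeights, 0.0012 in *Mad2l1*, 0.011 in *Kif18a*, 0.037 in *Nuf2*, 0.052 in *Spc24* and 0.25 in *Spc25*. With 3 samples per group and a CTX group spread this wide, most differences of single genes under 2-fold did not pass the test.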
